A study of Homo sapiens with 6 samples.

Results

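The comparison described here is the response of MDA-MB-231 cells to the higher of 2 doses of AF-EAE, an extract made with ethyl acetate from the plant Antenoron filiforme. It takes the 2 libraries labelled 150 µg/ml and the 2 labelled DMSO, the solvent control, which are 4 of the 6 RNA libraries of the study. All cells were collected after 24 h, and the remaining 2 libraries received the extract at 75 µg/ml. MDA-MB-231 is an established human breast cancer cell line of the triple-negative class, which lacks the oestrogen and progesterone receptors and amplified HER2. The sources used here do not give the constituents of the extract or its content of any single compound. The labels alone decided which libraries belong to it, and the response is given for all 15589 genes with enough counts to be tested. The series title names proliferation and an axis of SKP2 and p21, the product of CDKN1A.

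As background, SKP2 is the substrate-binding subunit of a ubiquitin ligase of the SCF type, which marks inhibitors of cyclin-dependent kinases for degradation in the proteasome. p21 is such an inhibitor: it binds cyclin and kinase complexes, keeps the RB proteins active and so holds back the E2F factors that drive genes of S phase. Plant extracts often hold reactive or aryl compounds, to which cells respond through 3 well-known routes. These are NRF2, which switches on antioxidant genes, the aryl hydrocarbon receptor AHR, which switches on xenobiotic-metabolising enzymes, and the integrated stress response, in which ATF4 switches on genes of amino acid supply.

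Counts in genes ran from 15621103 to 17113722 per library, and levels are given as CPM, counts scaled to a common library total, after TMM scaling, which sets libraries to a common scale through the bulk of their genes. The DMSO libraries correlated at 0.990 with each other over log2 CPM across genes and those at 150 µg/ml at 0.991, while no DMSO library correlated above 0.967 with a library at 150 µg/ml. The labels call the 2 libraries of a group biological replicates, without stating whether these came from separate cultures. The p-values therefore measure the spread between these libraries, which may be technical. Hormone receptor genes fitted the labelled line. The progesterone receptor gene PGR was at 0 in both DMSO libraries and ESR1, the oestrogen receptor gene, at 0.126 and 0.131 CPM. The epithelial cadherin gene CDH1 was also at 0 there, but 14 of 15 epithelial markers had enough counts to be tested. The 15 summed to 1053 and 1075 CPM in the DMSO libraries. The mesenchymal gene VIM was at 818 and 854 CPM and none of 12 leukocyte markers had enough counts to be tested. These are bulk libraries, so that fewer cells with a transcript and less of it per cell cannot be told apart.

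Just over 51% of the genes tested differed. By edgeR's quasi-likelihood test at a Benjamini-Hochberg adjusted p under 0.05, 8022 of 15589 genes changed (51.5%), 4022 higher at 150 µg/ml (25.8%) and 4000 lower (25.7%). Scaling by total counts in place of TMM moved the median over all genes from 0.03 to 0.22 on the log2 scale and the split to 6031 higher (38.7%) and 2542 lower (16.3%). A small fall is thus a fall relative to the bulk of genes. The list counts below stand beside these shares, 25.8% and 25.7%, and those by total counts beside 38.7% and 16.3%. Most changes were modest. The median log2 fold change was 0.64 for genes that rose and -0.50 for genes that fell, and 3508 of those called lay under 0.5 in size. At or beyond 1 on the log2 scale lay 1205 of the higher genes (7.73% of those tested), and at or beyond -1 lay 622 of the lower ones (3.99%). The tails were uneven: 327 genes rose by 2 or more on the log2 scale and 83 fell by as much, and 107 against 24 passed 3. In CPM, which is not corrected for gene length, genes that fell had a median level of 67.1 over the 4 libraries and genes that rose one of 22.9. The libraries of the 2 groups did not overlap for 74.8% of all genes tested, and for all but 14 of those called.

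**Figure D1:**
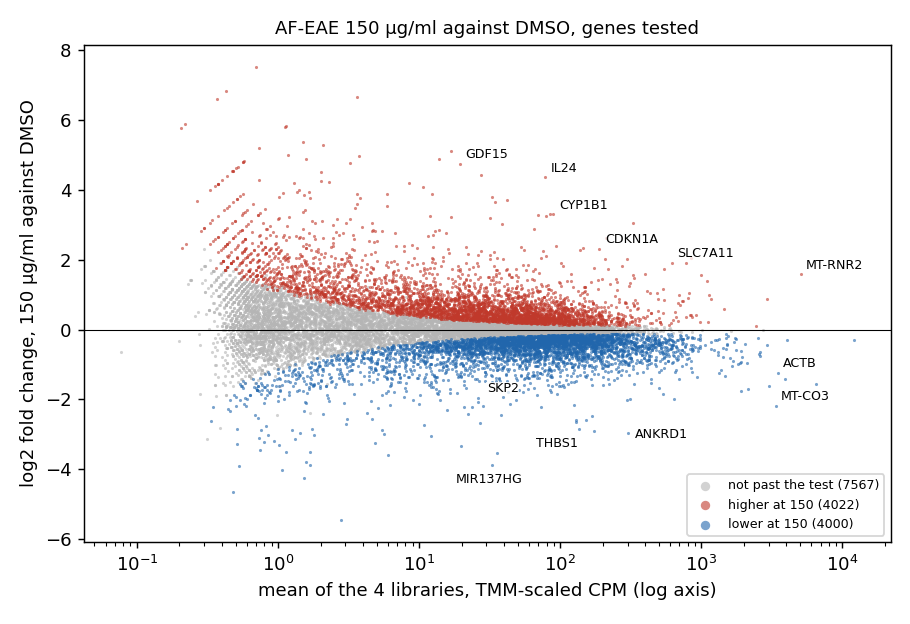
Log2 fold change at 150 µg/ml against DMSO (vertical axis) by mean TMM-scaled CPM over the 4 libraries (log axis) for the 15589 genes tested, 1 point a gene. Red points (4022) were higher and blue points (4000) lower at an adjusted p under 0.05, and grey points were not past the test. GDF15 and IL24 lie high on the vertical axis, while MT-RNR2 and MT-CO3 mark large changes among the most abundant transcripts.

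The largest rises among genes at 10 CPM or more included an antisense transcript, stress cytokines and an enzyme of reduction. The antisense transcript ZMIZ1-AS1 (chr10:78943328-79067895, GRCh38) went from 0.693 and 1.11 to 27.9 and 25.5 CPM (log2 fold change 4.88, SE 0.194), and ZMIZ1 itself from 56.04 and 63.96 to 97.3 and 105 CPM. Strand was not stated for these libraries, so reads of the pair are not separated with certainty. GDF15, a stress-induced cytokine of the TGF-beta superfamily, went from 1.20 and 1.57 to 39.3 and 35.3 CPM (4.75, SE 0.164, edgeR adjusted p = 2.7e-13). IL24, a cytokine of the IL-10 family, went from 7.56 and 6.87 to 151 and 146 CPM (4.36, SE 0.0929). In ZMIZ1-AS1, GDF15 and IL24 each library at 150 µg/ml lay far above each DMSO library, and those at 75 µg/ml lay between.

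EGR1, an immediate early transcription factor, was at 1.77 and 3.08 CPM in the DMSO libraries and 74.8 and 29.7 CPM at 150 µg/ml (log2 fold change 4.43, SE 0.395). Its 2 libraries at 150 µg/ml differed more from each other than those of the other genes of this group, and without replicate 1 at 150 µg/ml the log2 fold change was 3.62. Other large rises were those of F2RL2, a receptor of the protease-activated family (4.07), the aldo-keto reductase gene AKR1C1 (3.89), the peptide hormone gene ADM2 (3.80), the pseudogene NMRAL2P (3.71) and CHAC1, a glutathione-degrading enzyme gene (3.66). AKR1C1 has close paralogs, so its level is uncertain to that extent. AKR1C1 went from 1.01 and 2.09 to 26.8 and 19.1 CPM and CHAC1 from 3.47 and 6.61 to 65.8 and 61.1 CPM, with no overlap between the groups.

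The largest falls were of a microRNA host transcript, growth factor genes and genes of the cell surface and matrix. MIR137HG (chr1:97933474-98049863, GRCh38), the host transcript of miR-137, was at 64.5 and 58.1 CPM in the DMSO libraries and 3.75 and 4.53 CPM at 150 µg/ml, which is -3.88, SE 0.127 on the log2 scale (edgeR adjusted p = 1.3e-13). TGFB2, a ligand of the TGF-beta receptors, went from 61.2 and 70.05 to 5.20 and 6.15 CPM (-3.53, SE 0.12). SERTAD4, of the SERTA domain family, went from 37.1 and 34.6 to 3.63 and 3.54 CPM (-3.32, SE 0.135). Every library at 150 µg/ml was below every DMSO library in these genes. NEXN, an actin filament protein gene (-3.04), ANKRD1, a cofactor gene of muscle and a known YAP target (-2.95), THBS1, the thrombospondin-1 gene (-2.90), and DKK1, a secreted Wnt antagonist (-2.85), followed. SNCAIP (-2.74), whose product binds alpha-synuclein, the BMP antagonist NOG (-2.68) and HSPG2, the basement membrane proteoglycan perlecan (-2.63), completed the 10. ANKRD1 went from 534 and 534 to 70.2 and 68.3 CPM and DKK1 from 247 and 228 to 34.5 and 31.5 CPM.

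**Figure D2:**
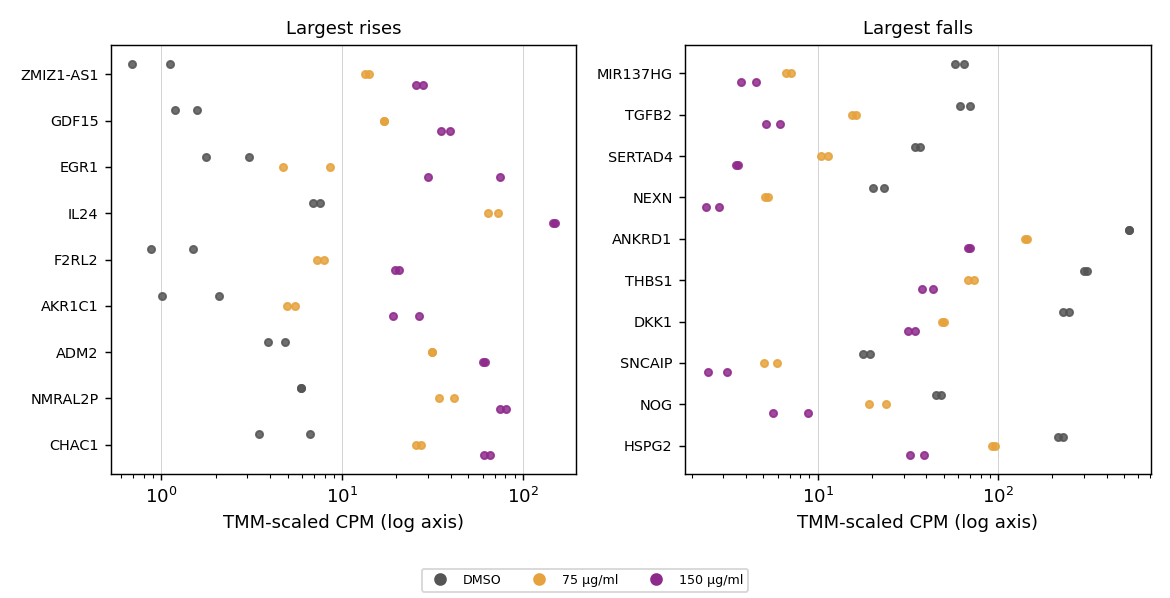
TMM-scaled CPM (log axis) in each library for genes with the largest rises (left) and falls (right) at 150 µg/ml among genes with a mean of 10 CPM or more, 2 points per group. Both points at 150 µg/ml lie beyond both DMSO points in every gene shown, and the points of EGR1 at 150 µg/ml, 29.7 and 74.8 CPM, are farthest apart.

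MIR137HG was one of 28 tested host transcripts of microRNAs, of which 10 fell and 4 rose (median -0.38), beside 25.7% lower and 25.8% higher and a median of 0.03 over all genes. By total counts 6 of the list rose and 9 fell, with a median of -0.20. MIR17HG, host of the miR-17 to miR-92 cluster, went from 10.5 and 11.8 to 5.14 and 4.76 CPM (-1.18, SE 0.175), and MIR99AHG from 0.693 and 0.786 to 4.17 and 4.12 CPM (2.48, SE 0.341). The mature microRNAs were not measured here. The sequences below are those of mature products of the hosts named, from RefSeq (GRCh38.p14), shown to identify them, with the seed (bases 2 to 8) in capitals. miR-17-5p and miR-20a-5p, both from MIR17HG, share 1 seed.
hsa-miR-137-3p (chr1:98046091-98046113, minus strand): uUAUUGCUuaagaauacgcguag
hsa-miR-17-5p (chr13:91350618-91350640, plus strand): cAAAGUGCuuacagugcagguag
hsa-miR-20a-5p (chr13:91351072-91351094, plus strand): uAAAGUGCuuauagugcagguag
hsa-miR-99a-5p (chr21:16539101-16539122, plus strand): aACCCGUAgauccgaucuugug

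Ranked by CPM gained or lost, which weights abundant transcripts and is not corrected for length, a different set led. The mitochondrial ribosomal RNA genes MT-RNR2 and MT-RNR1, the ferritin chains FTL and FTH1, SLC3A2 and SLC7A11, the 2 subunits of the cystine transporter, NAMPT, an enzyme of NAD salvage, and the thioredoxin reductase gene TXNRD1 gained most. SLC3A2 was at 357 and 298 CPM in the DMSO libraries and 1474 and 1269 CPM at 150 µg/ml (2.06, SE 0.0741) and NAMPT at 578 and 629.8 CPM in the DMSO libraries and 1579.9 and 1581 CPM at 150 µg/ml (1.39, SE 0.0476). The losses were 6 mitochondrial mRNAs, the actin gene ACTB (4945 and 4859 to 2039 and 2140.3 CPM, -1.23, SE 0.0408) and the elongation factor gene EEF1A1 (-0.30). FTL, FTH1, ACTB and EEF1A1 have processed copies, and 62.4% of the exonic length of FTH1 overlaps other genes, so their levels are uncertain.

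Genes of the cell division cycle fell in nearly every list examined. SKP2 was at 89.6 and 95.97 CPM in the DMSO libraries and 35.7 and 38.4 CPM at 150 µg/ml (-1.32, SE 0.0736), and of the 10 tested genes of its ligase 7 fell and 0 rose (median -0.35). The scaffold CUL1 (-0.51) and CKS2 (-0.68), a small kinase-binding protein, were among those that fell. SKP1, the adaptor, was at 118 and 132 CPM in the DMSO libraries and 122 and 123 CPM at 150 µg/ml and its groups overlapped, while total counts put it at 0.16 (edgeR adjusted p = 0.0383). By total counts 1 of the list rose and 6 fell, with a median of -0.17. CDKN1A was at 117 and 118 CPM in the DMSO libraries and 492 and 456 CPM at 150 µg/ml (2.01, SE 0.0527), and was the only one of 4 tested CDK inhibitor genes that rose. CDKN2C, which encodes p18 and binds CDK4 and CDK6, fell from 69.2 and 71.7 to 27.2 and 26.2 CPM. CDKN2D fell by less (log2 fold change -0.33), and its call was lost under total counts (-0.14, edgeR adjusted p = 0.295). CDKN1B, the p27 gene, was at 58.4 and 61.9 CPM in the DMSO libraries and 50.3 and 55.6 CPM at 150 µg/ml and did not pass the test.

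Of 12 tested genes of D-type and E-type cyclins, their kinases and the RB proteins, 10 fell (median -0.40) and CCND2 rose from a low level (0.378 and 0.524 to 1.75 and 1.63 CPM). CDK6 went from 217 and 218 to 87.7 and 83.99 CPM (-1.34, SE 0.0534) and CCND1, cyclin D1, from 728 and 751 to 328 and 363 CPM (-1.10, SE 0.051). The phosphatase gene CDC25A was at -0.76. Among 16 E2F, FOXM1 and DREAM factor genes 9 fell and 4 rose (median -0.37). E2F1 (-1.12), its partner TFDP1 (-0.88) and the mitotic factor FOXM1 (-1.04) were lower, while E2F7, a repressor of the family, went from 174 and 172 to 285 and 278 CPM (0.70) and E2F6, another repressor, was at 0.34.

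Most replication genes were lower. Of 48 tested genes of origin licensing and the replication fork 37 fell and 2 rose (median -0.46). UHRF1, which couples DNA methylation to replication, went from 312 and 289 to 101 and 99.1 CPM, the uracil glycosylase gene UNG from 149 and 148 to 39.95 and 42.02 CPM and the helicase subunit gene MCM3 from 437 and 443 to 168 and 188 CPM. ORC3 (0.44) and TIMELESS (0.20) were the 2 that rose. Nucleotide synthesis fell in 21 of 25 cases (median -0.66), with the dUTPase gene DUT at -1.32, the ribonucleotide reductase subunit RRM2 at -0.96 and the purine enzyme PAICS at -0.94. The p53-inducible reductase subunit RRM2B rose instead, from 42.8 and 51.5 to 78.6 and 69.5 CPM. Replication-dependent histone genes were few among the tested (11), with 4 lower and 1 higher (median -0.24).

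Mitotic genes showed the most uniform falls of the division cycle. Of 28 mitotic cyclins, kinases and regulators of the anaphase-promoting complex 27 fell and none rose (median -0.81). PLK1, a mitotic kinase, was at 153 and 151 CPM in the DMSO libraries and 50.3 and 50.1 CPM at 150 µg/ml (-1.60, SE 0.058). CDC20, an activator of the anaphase-promoting complex, went from 260.4 and 245 to 80.5 and 87.9 CPM (-1.58, SE 0.0625) and the kinase gene AURKA from 339 and 359 to 122 and 135 CPM (-1.44, SE 0.0597). Kinesins, spindle and cytokinesis genes fell in 24 of 27 cases with none higher (median -0.79). KIF20A, a motor of the cleavage furrow, went from 196 and 214 to 43.9 and 47.7 CPM, and ANLN, a scaffold of the contractile ring, from 634 and 649 to 238 and 242 CPM. At kinetochores and centromeres 28 of 39 fell and none rose (median -0.49), or 24 and 2 by total counts, among them the passenger proteins BIRC5 (-1.49) and CDCA8 (-1.35) and the motor CENPE (-1.31). Condensin, cohesin and topoisomerase genes fell in 18 of 21 cases (median -0.57), for example NCAPG (-1.10), and ESCO1, a cohesin acetyltransferase, rose (0.68). Repair genes of homologous recombination and the Fanconi pathway were divided, with 22 lower and 8 higher of 44 (median -0.28). By total counts 9 of the list rose and 12 fell, with a median of -0.09. BRCA1 rose from 72.5 and 74.6 to 121 and 124 CPM (0.74), whereas its partner BARD1 fell (-0.83).

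Promoters of cell cycle genes are known to carry CCAAT boxes beside a cell cycle homology region (CHR), to which DREAM and FOXM1 complexes bind, and E2F sites. These letters were sought on both strands in RefSeq promoter windows of 250 bases before to 50 after the start (GRCh38.p14). CCAAT was in 68.2% of the 22 mitotic gene promoters found and in 35.7% of all 27305 promoters. TTTGAA, the CHR, was in 50% against 15.4%. Members with CCAAT had a median log2 fold change of -0.87 and those without -0.38. For the CHR these medians were -0.76 with and -0.87 without. GGCGGGAA and TTTGGCGC, forms of the E2F site, were in 10 and 7 of 42 replication gene promoters, against 3.18% and 0.659% of all promoters. The medians with and without were -0.60 and -0.37 for the first form and -0.88 and -0.42 for the second. Among promoters of tested genes alone the shares were 36.1% for CCAAT, 9.75% for the CHR and 5.06% and 1.06% for the E2F forms. A match describes the letters and is not a binding site by itself. The upstream bases of 3 mitotic genes (CCAAT and, in PLK1 and CDC20, CHR in capitals) and 2 replication genes (E2F forms in capitals), each lower at 150 µg/ml, show how the elements lie before the start, which follows the last base printed. TTTGAA had no match in the CCNB1 window.
PLK1 (chr16:23678789-23678888, plus strand): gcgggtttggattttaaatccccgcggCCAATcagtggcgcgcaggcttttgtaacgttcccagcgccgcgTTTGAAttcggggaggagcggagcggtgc
CDC20 (chr1:43358861-43358980, plus strand): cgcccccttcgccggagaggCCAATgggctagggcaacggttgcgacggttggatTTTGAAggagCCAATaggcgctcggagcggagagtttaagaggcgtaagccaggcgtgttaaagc
CCNB1 (chr5:69167030-69167149, plus strand): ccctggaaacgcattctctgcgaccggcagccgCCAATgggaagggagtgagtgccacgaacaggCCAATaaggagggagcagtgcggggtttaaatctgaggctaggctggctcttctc
PCNA (chr20:5126623-5126722, minus strand): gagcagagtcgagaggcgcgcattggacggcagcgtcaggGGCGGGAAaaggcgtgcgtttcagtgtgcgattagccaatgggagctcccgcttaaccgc
MCM6 (chr2:135876444-135876603, minus strand): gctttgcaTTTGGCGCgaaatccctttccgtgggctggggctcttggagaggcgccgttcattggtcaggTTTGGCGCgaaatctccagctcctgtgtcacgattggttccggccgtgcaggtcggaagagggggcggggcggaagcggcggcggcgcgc
CCNB1, the mitotic cyclin B1, was at 357 and 373 CPM in the DMSO libraries and 157 and 163 CPM at 150 µg/ml, PCNA, the sliding clamp of DNA polymerase, fell from 287 and 287 to 127 and 124 CPM and the helicase subunit gene MCM6 from 187 and 192 to 72.9 and 78.3 CPM.

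Genes of amino acid supply and the integrated stress response rose together. Of 21 tested regulators of this response 16 rose and 4 fell (median 1.04). TRIB3, a pseudokinase induced by ATF4, was at 45.8 and 50.3 CPM in the DMSO libraries and 251 and 231 CPM at 150 µg/ml (2.33, SE 0.0646), SESN2, a leucine sensor, went from 15.8 and 15.4 to 122 and 106 CPM (2.87, SE 0.0883) and ADM2 from 3.91 and 4.84 to 62.01 and 60.3 CPM. ATF4 itself, the transcription factor of the response, went from 391 and 384 to 728 and 674 CPM (0.86, SE 0.0469). The falls were the amino acid sensing kinase gene EIF2AK4 (-0.78), the transcription factor gene ATF5 (-0.95), EIF2AK1 (-0.24, whose call was lost under total counts) and EIF2AK2, the kinase that senses double-stranded RNA (-0.18, but 0.0077 and not called under total counts).

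In serine, one-carbon and asparagine synthesis 11 of 17 rose and 4 fell (median 0.64). CTH, the cystathionine gamma-lyase gene, went from 8.01 and 9.03 to 71.9 and 66.1 CPM (3.02, SE 0.1), PSAT1 of serine synthesis from 183 and 172 to 447 and 446 CPM (1.33) and the transaminase gene GPT2 from 62.03 and 61.3 to 167 and 159 CPM (1.40). The folate enzymes MTHFD1 (-0.999) and SHMT1 (-0.81), cytosolic forms, and ALDH18A1 of proline synthesis (-0.89) fell. ASNS, asparagine synthetase, was at 0.82 and 1.18 CPM in the DMSO libraries and 9.25 and 7.43 CPM at 150 µg/ml. Its exons overlap other genes on either strand over 44.6% of their length. Reads in such stretches may not have been counted, so that this level may be a lower estimate. Cytosolic aminoacyl-tRNA synthetases split by enzyme: 11 of 20 rose (median 0.34), among them WARS1 (1.47), AARS1 (1.16) and GARS1 (1.11), and 6 fell, among them FARSB (-0.77) and KARS1 (-0.41). By total counts 13 of the list rose and 4 fell, with a median of 0.53. Of 18 amino acid transporters 10 rose and 4 fell (median 0.31). SLC7A11, the cystine carrier, went from 264 and 256 to 1005 and 955 CPM (1.91, SE 0.046) and the neutral amino acid carrier SLC1A4 from 12.5 and 12.3 to 51.3 and 50.6 CPM, while the cationic carriers SLC7A2 (-1.29), SLC7A6 (-0.75) and SLC7A1 (-0.32) fell.

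ATF4 binds a composite element of which TGATGNAA is the core. It was in 3 of 19 promoters of the stress response list and in 3.67% of all promoters, with medians of 1.81 with it and 1.17 without. CHAC1, with the largest rise of that list after ADM2, holds it on the minus strand, in capitals below.
CHAC1 (chr15:40953251-40953470, plus strand): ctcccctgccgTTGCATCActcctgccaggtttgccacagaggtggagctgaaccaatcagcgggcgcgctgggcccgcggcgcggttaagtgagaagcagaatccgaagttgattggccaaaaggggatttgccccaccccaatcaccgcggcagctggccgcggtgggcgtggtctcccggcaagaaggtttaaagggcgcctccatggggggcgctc

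Chaperones of the endoplasmic reticulum and of the cytosol moved apart. Of 25 tested genes of the unfolded protein response in the endoplasmic reticulum 16 rose and 3 fell (median 0.25). XBP1, its transcription factor, went from 88.3 and 87.9 to 217 and 193 CPM (1.22), the co-chaperone DNAJB9 from 15.3 and 15.8 to 68.4 and 56.9 CPM (2.01) and HERPUD1, a degradation factor, from 81.00 and 89.8 to 182 and 184 CPM. By total counts 19 of the list rose and 1 fell, with a median of 0.44. Of 31 heat shock proteins and DNAJ cochaperones 24 fell and 4 rose (median -0.39), or 17 and 5 by total counts (median -0.20). HSPA8, the constitutive HSP70, went from 2614 and 2419.9 to 1291 and 1334 CPM (-0.94), HSP90AB1 from 3290.3 and 3204 to 1898 and 1963 CPM (-0.75) and the chaperonin subunit CCT5 from 692 and 683 to 398 and 404 CPM. DNAJB2 (1.71), DNAJB4 (0.61) and the small heat shock protein gene HSPB8 (1.65) rose.

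NRF2 targets rose almost throughout. Of 35 tested, 30 rose and 2 fell (median 0.90). TRIM16L went from 27.8 and 29.2 to 119 and 116 CPM (2.04, SE 0.07), TXNRD1 from 753 and 759.9 to 1567 and 1453 CPM (0.997) and GCLM, a subunit of the first enzyme of glutathione synthesis, from 117 and 112 to 266 and 247 CPM (1.16). NFE2L2, which encodes NRF2 itself, went from 141 and 147 to 189 and 188 CPM (0.39), and its inhibitor gene KEAP1, at 134 and 127 CPM in the DMSO libraries and 142 and 135 CPM at 150 µg/ml, did not pass the test. TKT, transketolase, fell (-0.44), and TXN fell by 0.13 on the log2 scale under TMM but stood at 0.06 under total counts, not past the test there. The core of the antioxidant response element, TGACNNNGC, was in 6 of 26 of their promoters and in 13.6% of all promoters, or 15.2% of those of tested genes, and the median was 0.62 with it and 0.87 without.

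Genes of iron handling were divided, with 10 of 21 higher and 8 lower, and a median of 0.16 that was -0.05 without replicate 2 at 150 µg/ml. The haem oxygenase gene HMOX1 went from 26.1 and 24.9 to 94.4 and 90.4 CPM (1.86, SE 0.0798) and FTH1, an iron store, from 351 and 304 to 1289.5 and 1171 CPM (1.91). TFRC, the transferrin receptor that takes iron up, fell from 2222 and 2169 to 1162 and 1192 CPM (-0.90, SE 0.0406), and GPX4, the lipid peroxidase that protects from ferroptosis, from 175 and 163 to 125 and 119.9 CPM (-0.47). By total counts 10 of the list rose and 5 fell, with a median of 0.35.

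AHR and its targets rose in 9 of 10 cases (median 1.01). CYP1B1, a monooxygenase, was at 16.2 and 16.8 CPM in the DMSO libraries and 167 and 159 CPM at 150 µg/ml (3.30, SE 0.0696) and CYP1A1, the classical target, at 4.73 and 4.78 CPM in the DMSO libraries and 18.4 and 21.4 CPM at 150 µg/ml (2.06, SE 0.141). EREG, an EGF family ligand, went from 14.3 and 16.5 to 166 and 143 CPM (3.32, SE 0.0911). AHR itself was the one lower member (-0.24), a call that was lost under total counts. At 75 µg/ml CYP1B1 was already at 147 and 144 CPM, a step to 150 µg/ml of 0.16 (SE 0.054). CYP1A1 was at 24.1 and 22.8 CPM there, and its step of -0.24 (SE 0.115) did not pass the test. GCGTG, the core of the xenobiotic response element, is short and stood in 7 of 9 of the list's promoters and in 36.3% of all promoters, or 50.3% of those of tested genes. Members with these letters had a lower median (0.82) than those without (2.42). Of 27 ABC transporters, some of which export xenobiotics, 14 rose and 6 fell (median 0.35). ABCC3 went from 9.90 and 14.2 to 46.3 and 65.3 CPM, and ABCC4 fell from 80.9 and 80.8 to 29.8 and 32.6 CPM.

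Interferon-stimulated genes rose in 30 of 41 cases and fell in 2 (median 1.03). IFI44 was at 8.38 and 10.6 CPM in the DMSO libraries and 47.1 and 43.5 CPM at 150 µg/ml (2.25, SE 0.115), the ubiquitin-like modifier ISG15 at 30.8 and 31.9 CPM in the DMSO libraries and 89.4 and 79.8 CPM at 150 µg/ml (1.43, SE 0.0783), and the RNA-binding protein gene IFIT2 went from 17.3 and 21.3 to 68.5 and 60.5 CPM (1.74). IFITM2 (-0.62) and IFITM3 (-0.29), which restrict virus entry, were the 2 lower members, and the call of IFITM3 was lost under total counts. The transcription factor genes STAT2 (0.99) and IRF7 (2.29) rose. Antigen presentation could not be followed at the HLA locus: of 137 protein-coding rows from HLA-F to HLA-DPB1 (chr6:29722775-33087201, GRCh38), 13 were tested and 83 held no count in any of the 4 libraries. The core of the interferon-stimulated response element, a pair of GAAA blocks with any 2 bases between them, was in 64.5% of 31 promoters of the list and in 3.65% of all promoters. It stands in capitals in the upstream bases of ISG15, where 2 matches overlap, and of IFIT3, on the minus strand.
ISG15 (chr1:1013377-1013496, plus strand): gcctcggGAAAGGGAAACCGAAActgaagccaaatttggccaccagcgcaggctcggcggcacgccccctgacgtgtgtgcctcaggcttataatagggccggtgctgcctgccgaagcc
IFIT3 (chr10:89327837-89327996, plus strand): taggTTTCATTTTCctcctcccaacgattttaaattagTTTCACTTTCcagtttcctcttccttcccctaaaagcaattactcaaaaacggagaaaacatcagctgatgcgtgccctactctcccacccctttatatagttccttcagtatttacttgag
IFIT3, a partner of IFIT2, went from 42.2 and 48.8 to 98.2 and 97.98 CPM. The median log2 fold change was 0.93 for the members with the letters and 0.99 for those without.

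Cytokine transcripts were higher. Of 7 tested chemokine genes 5 rose (median 1.19), and of 15 interleukins and colony-stimulating factors 11 rose (median 1.08), with none lower in either. CXCL8, the neutrophil attractant interleukin-8, was at 65.9 and 74.8 CPM in the DMSO libraries and 640.4 and 521 CPM at 150 µg/ml (3.05, SE 0.0836), and CXCL2 went from 11.6 and 14.2 to 126 and 126 CPM (3.29, SE 0.0863). IL1B went from 12.2 and 17.8 to 141 and 147 CPM (3.26, SE 0.103) and IL1A from 26.98 and 32.9 to 168 and 149 CPM (2.40). In these 4 genes the groups lay far apart. CXCL2 and CXCL3 are close relatives that can share reads. Of 20 NF-kB subunits and feedback inhibitors 13 rose and 1 fell (median 0.32), among the rises the subunit NFKB2 (1.04) and the adhesion molecule target ICAM1 (1.06). NFKB1 fell (-0.32, lost under total counts), and the inhibitor gene NFKBIA overlapped between the groups (93.7 and 87.1 CPM in the DMSO libraries and 74.8 and 98.9 CPM at 150 µg/ml).

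Immediate early genes rose in 15 of 24 cases and fell in 3 (median 0.56). JUNB went from 12.3 and 9.23 to 44.4 and 37.3 CPM (1.92), KLF4 from 29.7 and 33.3 to 65.8 and 65.8 CPM (1.06) and ATF3, a stress-induced repressor, from 8.32 and 8.44 to 35.5 and 23.4 CPM (1.81). The AP-1 subunits FOSL1 (-0.42) and FOSL2 (-0.47) fell. MYC fell by 0.28 on the log2 scale and was no longer called under total counts, while of its antagonists MXD1 (1.84), MXD4 (1.09) and MXI1 (0.96) rose and MXD3 (-1.15) fell. The network of MYC, MAX and these antagonists had 5 higher and 3 lower of 11 (median 0.25). By total counts 6 of the list rose and 1 fell, with a median of 0.44. Of 14 MAPK feedback genes 8 rose and 3 fell (median 0.37), with phosphatases higher at DUSP1 (35.6 and 34.4 to 107 and 81.9 CPM) and DUSP5 (111 and 119.99 to 206 and 203 CPM) and lower at DUSP7 (74.1 and 63.96 to 31.9 and 36.9 CPM). Among 13 EGF family genes (median 0.21) 6 rose and 3 fell. EREG, TGFA (1.07) and AREG (1.77) rose, and the receptor gene EGFR fell from 357 and 339 to 231 and 221 CPM (-0.62). By total counts 7 of the list rose and 1 fell, with a median of 0.40.

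YAP/TAZ-TEAD targets fell in 25 of 26 cases and rose in none (median -0.92; 23 and 1 by total counts), the lowest median of any list with 10 or more nuclear genes tested. CCN1, a matricellular protein gene, was at 1023 and 1020.3 CPM in the DMSO libraries and 272 and 245 CPM at 150 µg/ml (-1.98, SE 0.0566) and CRIM1, a membrane protein gene, at 855 and 824 CPM in the DMSO libraries and 227 and 240.1 CPM at 150 µg/ml (-1.85, SE 0.0472). ANKRD1, described above, and CCN2, connective tissue growth factor (258 and 261 to 48.6 and 38.2 CPM, -2.58), showed the same separation of groups. YAP1 itself was at -0.29, no longer called under total counts, WWTR1, the TAZ gene, overlapped between groups (85.2 and 109 CPM in the DMSO libraries and 103 and 110.5 CPM at 150 µg/ml), and TEAD1 went from 591 and 621 to 348 and 319 CPM (-0.86). GGAATG, the core of the TEAD site, was in 8 of 20 promoters of the list and in 14.1% of all promoters, with medians of -1.11 with it and -1.06 without. Matches are in capitals in the upstream bases of CCN2 and ANKRD1, with TGFB2 the targets of this list that fell most.
CCN2 (chr6:131951373-131951552, minus strand): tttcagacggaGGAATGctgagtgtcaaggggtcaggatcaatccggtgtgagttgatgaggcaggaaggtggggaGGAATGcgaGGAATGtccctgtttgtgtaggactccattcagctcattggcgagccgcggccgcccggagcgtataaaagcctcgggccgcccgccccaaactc
ANKRD1 (chr10:90921088-90921317, minus strand): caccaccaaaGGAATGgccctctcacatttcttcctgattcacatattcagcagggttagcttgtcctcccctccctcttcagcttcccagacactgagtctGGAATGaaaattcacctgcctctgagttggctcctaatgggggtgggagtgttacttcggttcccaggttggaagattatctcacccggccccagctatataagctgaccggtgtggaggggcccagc

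Actin cytoskeleton and SRF-MRTF targets fell in 21 of 29 cases and rose in 3 (median -0.52). ACTG1, cytoplasmic gamma-actin, went from 2252 and 2174 to 1072 and 1099.6 CPM and the calponin gene CNN3 from 408 and 401 to 184 and 171 CPM. Matrix genes fell in 18 of 29 cases and rose in 6 (median -0.33). By total counts 8 of the list rose and 13 fell, with a median of -0.14. HSPG2 went from 228 and 216 to 32.7 and 38.9 CPM, THBS1 from 299.6 and 313 to 43.8 and 37.96 CPM and COL12A1, a fibril-associated collagen, from 213 and 232 to 35.1 and 38.7 CPM. The laminin chain genes LAMB3 (843 and 809 to 1505 and 1539 CPM) and LAMA1 (1.72) rose. Integrin genes fell in 6 of 13 cases (median -0.41), with ITGB1 at -0.79, ITGA6 at -0.87 and ITGA3 at -0.63, and rose in 4, with ITGA5, a chain of the fibronectin receptor, at 0.64 and ITGA2, a chain of a collagen receptor, at 0.68. Matrix proteases and inhibitors rose in 12 of 21 cases and fell in 8 (median 0.41). The stromelysin gene MMP3 went from 0.82 and 0.916 to 16.98 and 14.98 CPM (4.19, SE 0.219) and the membrane protease MMP14 from 509.6 and 537 to 888 and 973 CPM (0.83), while the inhibitors TIMP2 (-0.69) and TIMP3 (-1.82) fell.

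Developmental signalling genes moved in both directions, as did genes at large. Of all genes tested 25.8% rose and 25.7% fell, or 38.7% and 16.3% by total counts. In the TGF-beta list 7 of 22 rose (31.8%) and 9 fell (40.9%). The list median was -0.09 under TMM and 0.09 by total counts, where 9 rose and 6 fell. The inhibitory SMAD7 rose from 6.56 and 7.86 to 16.98 and 20.1 CPM and TGFB1 was at 0.44, against -3.53 for TGFB2. Of 16 BMP pathway genes 7 fell and none rose (median -0.27): the antagonist NOG went from 48.03 and 45.4 to 5.68 and 8.88 CPM, the ligand BMP4 from 37.5 and 44.2 to 21.03 and 18.1 CPM and the target ID3 from 19.04 and 17.1 to 6.65 and 8.07 CPM. By total counts 2 of the list rose and 6 fell, with a median of -0.08. Wnt pathway genes fell in 15 of 25 cases (median -0.45), among them the receptors FZD2 (96.2 and 86.1 to 30.9 and 32.2 CPM) and LRP5 (-0.71). By total counts 4 of the list rose and 10 fell, with a median of -0.26. The orphan receptor gene NR2F2 fell from 293 and 273 to 50.8 and 50.5 CPM (-2.48, SE 0.058), one of 2 lower and 10 higher among 28 nuclear receptors (median 0.23). By total counts 17 of the list rose and 1 fell, with a median of 0.42. Of 25 hypoxia-responsive genes 11 rose (44%) and 7 fell (28%, near the share of all genes), with a median of 0.20. The angiogenic factor VEGFA went from 57.4 and 69.00 to 294 and 327 CPM (2.30, SE 0.0746), while the glucose transporter SLC2A1 (-0.69) and the peptide hormone ADM (-1.04) fell. By total counts 15 of the list rose and 5 fell, with a median of 0.39.

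The gene expression machinery was lower. Of 52 genes of ribosome biogenesis and RNA polymerase I 42 fell and 1 rose (median -0.47). The nucleolar proteins NPM1 (2419 and 2372 to 1208 and 1229 CPM) and NCL (1100.5 and 1099.6 to 581 and 594 CPM) and the ribonucleoprotein NOP56 (-1.02) had the smallest p of these falls. The largest fall of the list was -1.47. Among 82 genes of cytosolic ribosomal proteins 63 fell and none rose (median -0.29), by small amounts such as -0.59 for RPL7A. By total counts 38 fell and 3 rose (median -0.11). Many of them have processed copies. HNRNP and SRSF splicing regulators fell in 29 of 35 cases and rose in none (median -0.52), for example SRSF2 (-1.04) and HNRNPA3 (-0.89). By total counts 3 of the list rose and 25 fell, with a median of -0.33. Nucleoporins and transport receptors fell in 37 of 51 cases (median -0.35), with RAN at -0.76 and NUP210 at -1.33. Translation factors fell in 35 of 64 cases and rose in 10 (median -0.19). The translation inhibitor EIF4EBP1 rose (0.68) and the elongation factor EIF5A fell (-0.94). By total counts 15 of the list rose and 20 fell, with a median of -0.01. RNA helicases of the DDX and DHX families fell in 22 and rose in 7 of 47 cases, and their median was -0.11 under TMM and 0.08 by total counts, where 15 rose and 17 fell. The 3 rises of smallest p were the interferon-induced DDX60 (1.90) and DHX58 (1.42) and DHX40 (0.76). Proteasome genes moved little, with 15 lower and 2 higher of 43, a median of -0.09 and, under total counts, 0.10 with 14 higher and 5 lower.

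**Figure D3:**
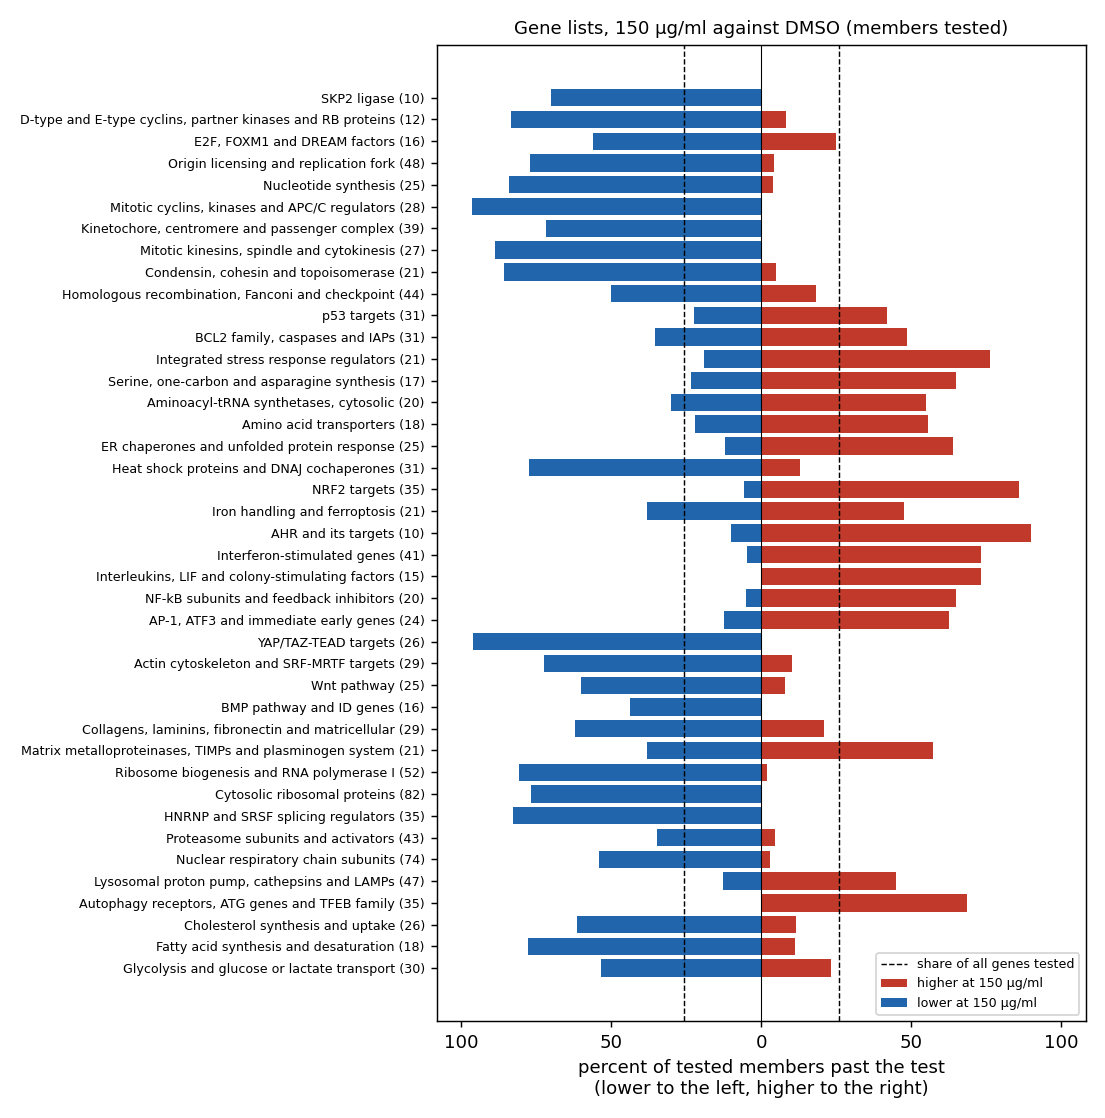
Share of tested members past the test at 150 µg/ml against DMSO, for a selection of the gene lists of the text, higher to the right (red) and lower to the left (blue), with the number tested in brackets. Dashed lines mark the shares over all 15589 genes, 25.8% higher and 25.7% lower. Division, YAP/TAZ and ribosome lists extend to the left, and NRF2, AHR, interferon and stress response lists to the right.

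Mitochondrial transcripts divided by class. The 13 protein genes of the mitochondrial genome held 3.92% and 3.999% of gene counts in the DMSO libraries and 1.73% and 1.97% at 150 µg/ml, and 12 of them fell (median -1.40). The 2 ribosomal RNA genes went the other way, from 0.261% and 0.300% to 0.952% and 0.967% of gene counts. MT-RNR2 was at 2340.1 and 2699 CPM in the DMSO libraries and 7533 and 7637 CPM at 150 µg/ml (1.59, SE 0.0526) and MT-RNR1 at 477 and 526 CPM in the DMSO libraries and 1452 and 1526 CPM at 150 µg/ml (1.57, SE 0.0498). MT-CO3, a subunit of cytochrome c oxidase, was at 5429.5 and 5607 CPM in the DMSO libraries and 1088 and 1356 CPM at 150 µg/ml (-2.17, SE 0.0705). MT-ND6, the only protein gene on the other strand, fell from 451 and 497 to 104 and 130.4 CPM (-2.01) and MT-CYB of complex III from 3384 and 3159.7 to 972 and 1033 CPM (-1.71). The complex I genes MT-ND1 and MT-ND2, which follow the ribosomal RNAs on the transcribed strand, fell least, by 0.24 and 0.29 on the log2 scale, and neither was called under total counts. MT-ATP8, at 1.95 and 2.03 CPM in the DMSO libraries and 2.36 and 1.51 CPM at 150 µg/ml, overlaps MT-ATP6 and did not pass the test. Nuclear copies of mitochondrial DNA can take or share such reads, and poly(A) selection, which bears on how ribosomal RNA is captured, is not stated for these libraries.

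**Figure D4:**
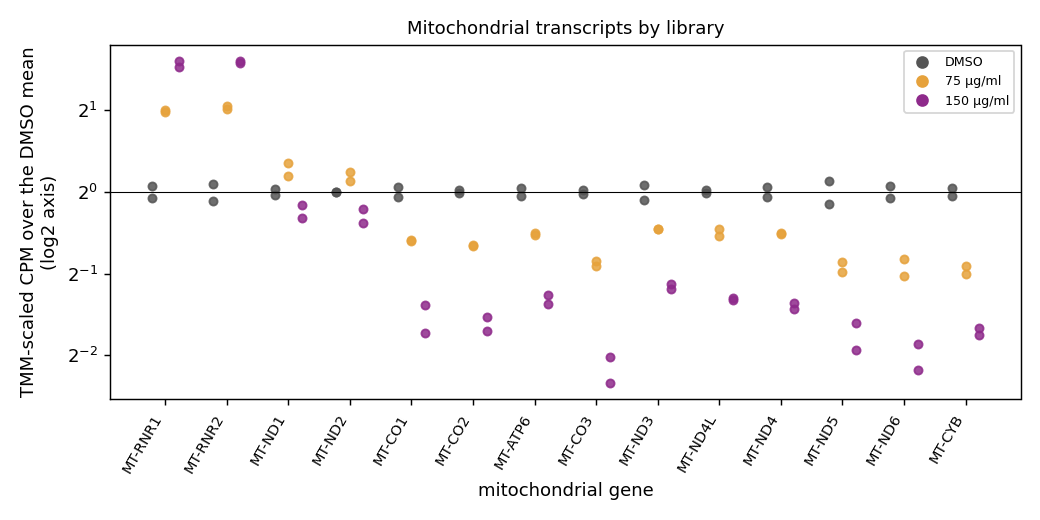
TMM-scaled CPM of mitochondrial transcripts in each library over the mean of the 2 DMSO libraries (log2 axis), in genome order, with MT-ATP8 left out for its low counts. The 2 ribosomal RNA genes on the left rise with dose, MT-ND1 and MT-ND2 stay near the DMSO level, and the other mRNAs are lowest at 150 µg/ml.

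Nuclear genes of the respiratory chain fell in 40 of 74 cases and rose in 2, by less than the mitochondrial mRNAs (median -0.25). ATP5MC1, a subunit of the ATP synthase, was at -1.10 and ATP5F1A at -0.71. By total counts 8 of the list rose and 17 fell, with a median of -0.06. Mitochondrial ribosomal proteins fell in 42 of 74 cases (median -0.31). By total counts 8 of the list rose and 27 fell, with a median of -0.12. Of 25 factors of mitochondrial transcription and RNA handling 12 fell and 3 rose (median -0.19). TFAM, which packages mitochondrial DNA and starts its transcription, went from 190.2 and 189 to 138 and 133 CPM (-0.48), and the coactivator genes PPARGC1B (-1.26) and PPARGC1A (0.75) moved apart. By total counts 5 of the list rose and 7 fell, with a median at 0.

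Autophagy genes rose in 24 of 35 cases and fell in none (median 0.46). MAP1LC3B, a ubiquitin-like protein of the autophagosome membrane, was at 194 and 206 CPM in the DMSO libraries and 633 and 568 CPM at 150 µg/ml (1.59, SE 0.0562). Its relative GABARAPL1 went from 18.03 and 19.4 to 98.5 and 84.1 CPM (2.28, SE 0.0915) and the cargo receptor SQSTM1 from 547 and 519.8 to 1119.7 and 1094 CPM (1.05). Lysosomal genes rose in 21 of 47 cases and fell in 6 (median 0.13). The protease CTSL (1.40), the galactosidase GLA (1.27) and the cholesterol exporter NPC1 (0.76) were among the rises. By total counts 34 of the list rose and 4 fell, with a median of 0.32. Cholesterol genes fell in 16 of 26 cases and rose in 3 (median -0.34). By total counts 7 of the list rose and 10 fell, with a median of -0.15. Fatty acid synthesis fell in 14 of 18 cases (median -0.44), with the synthase gene FASN going from 1014 and 1022 to 561 and 567 CPM. Glycolysis genes fell in 16 of 30 cases and rose in 7 (median -0.37), among the falls LDHA (1803 and 1976 to 760.03 and 834 CPM), ENO1 (-0.94) and PKM (-0.96). By total counts 11 of the list rose and 14 fell, with a median of -0.19. HKDC1, a hexokinase relative, went from 6.11 and 6.42 to 60.6 and 54.8 CPM (3.20, SE 0.118), and the lactate carrier SLC16A1 from 1.13 and 0.327 to 10.9 and 11.1 CPM (3.89, SE 0.331).

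Genes of cell death and of p53 did not move as 1 group. Of 31 BCL2 family, caspase and IAP genes 15 rose (48.4%) and 11 fell (35.5%), beside 25.8% and 25.7% of all genes (median 0.20). PMAIP1, the BH3-only protein NOXA, went from 29.6 and 29.6 to 79.5 and 60.4 CPM (1.24) and the inflammatory caspase gene CASP4 from 53.02 and 54.5 to 127 and 111 CPM (1.15). BIRC2, an inhibitor of apoptosis, fell (-0.67), as did the anti-apoptotic BCL2L1 (-0.52), of whose exonic length 43% overlaps other genes. Among 31 p53 targets 13 rose (41.9%) and 7 fell (22.6%, near the share of all genes), with a median of 0.15. By total counts 18 of the list rose and 3 fell, with a median of 0.33, beside 38.7% higher and 16.3% lower over all genes. CDKN1A, SESN2 and GDF15 had the smallest p of those that rose, and 2 of them are also induced in the integrated stress response. AEN (-0.73), CCNG1 (-0.40) and PLK2 (-0.49) fell, and MDM2, the feedback inhibitor of p53, did not pass the test (80.00 and 82.7 CPM in the DMSO libraries and 91.9 and 86.7 CPM at 150 µg/ml).

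A few genes passed from near absence to a measured level. With fewer than 3 counts in each DMSO library and 1 CPM or more in each library at 150 µg/ml there were 11 genes. SERPINB2, a plasminogen activator inhibitor, had 0 and 2 counts in DMSO and 46 and 54 at 150 µg/ml. KRT34, a hair keratin, had 2 and 0 against 41 and 36 counts, KLHDC7B 1 and 2 against 50 and 54, and the tubulin relative TUBAL3 2 and 2 against 39 and 45. The pseudogene RPLP0P2 had 0 and 2 against 125 and 118, but it copies the ribosomal gene RPLP0, so its reads are uncertain. IL36B, an interleukin-1 family cytokine chosen after its values were seen, had no count in DMSO and 21 and 26 counts at 150 µg/ml, at least 7.21-fold higher, taking 3 counts per library as the floor. In the reverse direction LRRN4, a leucine-rich repeat protein gene, was the single case, at 2.52 and 1.51 CPM in the DMSO libraries and 0.121 and 0.116 CPM at 150 µg/ml.

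The comparisons of each dose with DMSO share the DMSO libraries, so the dose step, 150 against 75 µg/ml, is the test of the difference. In that step 3433 genes changed by edgeR's quasi-likelihood test (22% of those tested), 1482 higher (9.51%) and 1951 lower (12.5%), or 2206 and 1345 by total counts. This count rests on single libraries more than the main one: it was 1507 without replicate 1 at 150 µg/ml and 1990 without replicate 1 at 75 µg/ml. INTS3, a subunit of the Integrator complex, had the largest step up among called genes at 10 CPM or more, with 3.28 and 1.24 CPM in the DMSO libraries and 30.6 and 12.8 CPM at 150 µg/ml and 1.34 and 0.901 CPM at 75 µg/ml. Its libraries at 150 µg/ml were far apart, and without replicate 1 at 150 µg/ml the step was 3.51 in place of 4.26. EGR1 (2.97), AKR1C1 (2.14), ATF3 (1.57), F2RL2 (1.40) and SESN2 (1.26) followed. ATF3 stood at 9.96 and 9.85 CPM at 75 µg/ml, close to its DMSO libraries. The largest steps down were SERTAD4 (-1.60), NOG (-1.56), KIF20A (-1.52), the ubiquitin ligase gene NEURL1B (-1.49), TGFB2 (-1.48) and HSPG2 (-1.40).

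**Figure D5:**
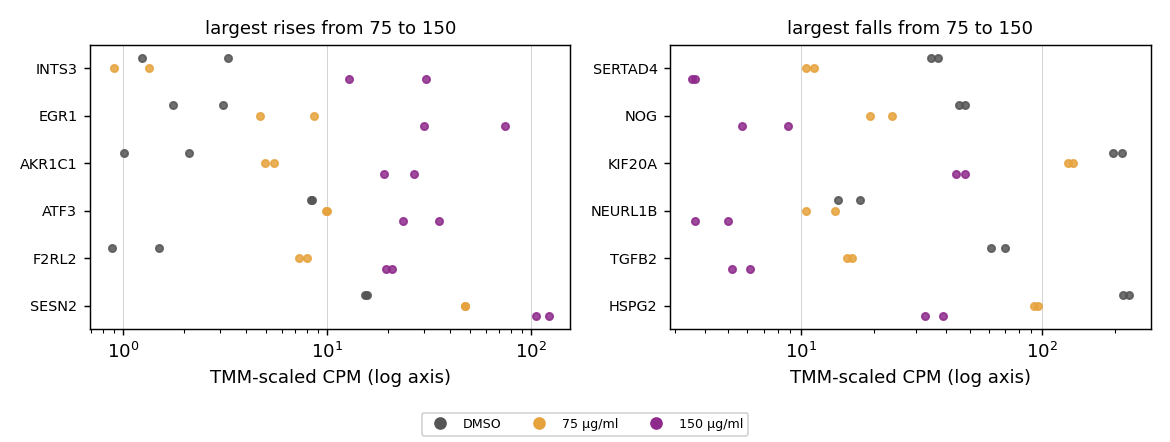
TMM-scaled CPM (log axis) in each of the 6 libraries for the 6 genes with the largest rises (left) and falls (right) from 75 to 150 µg/ml among called genes with a mean of 10 CPM or more, 2 points per group. INTS3 and ATF3 at 75 µg/ml lie near their DMSO points and move at 150 µg/ml, while SERTAD4 and HSPG2 fall at each dose.

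Lists differed in how much of their response the step held. Mitotic genes fell in 26 of 28 cases in the step (median -0.59), whereas replication genes fell in 11 of 48 (median -0.09). CCNB1, at 326 and 313 CPM at 75 µg/ml, had a step of -0.998 (SE 0.0495), and MCM6, at 79.1 and 76.9 CPM, one of -0.05 (SE 0.0603) that did not pass the test. The BMP target ID1 was at 75.4 and 70.7 CPM at 75 µg/ml against 70.8 and 68.7 CPM in the DMSO libraries and 24.7 and 40.6 CPM at 150 µg/ml, a step of -1.16 (SE 0.135, edgeR adjusted p = 1.1e-05). CSF3, the granulocyte growth factor gene, was highest at the lower dose (1189 and 1298 CPM) and lower at the higher one (255 and 240.1 CPM in the DMSO libraries and 746 and 919.5 CPM at 150 µg/ml, step -0.58, SE 0.0711). CXCL1, a chemokine, showed the same order (103 and 105 CPM at 75 µg/ml, 54.4 and 46.9 CPM in the DMSO libraries and 68.6 and 71.7 CPM at 150 µg/ml). MT-ND1 and MT-ND2 were also highest at 75 µg/ml, at 3116 and 3476 CPM and 4865 and 5275 CPM. ID1, CSF3 and CXCL1 were chosen after their values were seen.

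Basal and mesenchymal markers of the line fell, but factors of the epithelial-mesenchymal transition were mixed. All 7 tested basal and mesenchymal markers were lower (median -0.59), with the caveolin gene CAV1 going from 468 and 534 to 119.7 and 131 CPM (-1.998, SE 0.0627) and VIM from 818 and 854 to 549.9 and 560.03 CPM (-0.59). In the list of transition factors, cadherins and VIM 7 were tested. ZEB2, SNAI1 and ESRP1 rose and VIM and SNAI2 fell (42.9% and 28.6%). The list median was 0.08, or -0.02 with no filter on low counts. Epithelial markers had 4 higher and 3 lower of 14 (median 0.14), which is 28.6% and 21.4% and near the 25.8% and 25.7% of all genes. The keratins KRT8 (-0.87) and KRT18 (-0.91) fell and the claudins CLDN7 (1.23) and CLDN4 (0.24) rose. The rise of the tight junction gene OCLN (1.39 and 0.393 CPM in the DMSO libraries and 9.97 and 1.80 CPM at 150 µg/ml) rested on 1 library and was not past the test without replicate 1 at 150 µg/ml (log2 fold change 0.9988, edgeR adjusted p = 0.21). Of 5 tested luminal breast markers 2 rose and 2 fell, with a median of -0.02 under TMM and 0.17 by total counts. XBP1 and ESR1 rose, ESR1 from the low DMSO level given above, and KRT18 and GATA3 fell. Of 24 housekeeping reference genes 16 fell (median -0.26), among them ACTB, TFRC and the cyclophilin gene PPIA (-0.80), and 2 rose, among them B2M (0.29). By total counts 4 of the list rose and 10 fell, with a median of -0.08. RNH1, a ribonuclease inhibitor gene, was called although its libraries overlapped, at 6.56 and 7.59 CPM in the DMSO libraries and 6.71 and 65.5 CPM at 150 µg/ml. Without replicate 2 at 150 µg/ml it stood at -0.0795 (edgeR adjusted p = 0.932). Among protein-coding genes 28.1% were higher and 29.8% lower of 12383 tested, among long intergenic RNAs 20.6% and 10.7% of 691, and among processed pseudogenes 7.91% and 18.7% of 455. By chromosome the nuclear medians ran from -0.09 on chromosome 13 to 0.18 on chromosome 19. Protein-coding genes in the longest span class, 99.3 kb and more, had 581 higher and 851 lower of 2474 (median -0.06).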

How the data were processed

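RNA from 6 libraries of MDA-MB-231 cells, 2 each of DMSO and of the extract at 75 and 150 µg/ml for 24 h, was measured as counts per gene. The authors deposited these counts unnormalized, with HISAT2 2.2.1, HTSeq 2.0.2 and hg38 named per the submitters' processing notes. Strand setting, RNA selection and annotation release are not stated there. Between 10.95% and 11.48% of records per library, gene counts and all summary rows together, were ambiguous between genes and held by no gene. Overlapping genes can thus read low, and near-identical copies can share reads. Summary rows were left out of library totals. The re-analysis used edgeR 4.0.16 in R 4.3.3: filterByExpr by group, TMM scaling and quasi-likelihood tests over all 6 libraries, with Benjamini-Hochberg adjustment over all 15589 genes tested and a threshold of 0.05. SE is the absolute log2 fold change over the square root of F. The steps were tested on simulated data in which few genes changed. Such data do not test the scaling for a comparison in which 51.5% of genes were called.

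The comparison to describe and the gene lists were chosen with earlier results of these data known. Named genes were SKP2 and CDKN1A, the 10 largest rises and falls among genes at a mean of 10 CPM or more, the 8 largest CPM gains and losses, up to 6 genes near 0 in DMSO, the 6 largest steps from 75 to 150 µg/ml each way, and the 3 members of smallest p per list and direction. Some genes that this rule names are not reported here. All other genes named, including those that did not pass the test, were chosen after their values were seen. Alternatives were DESeq2 1.42.0, limma 3.58.1 (voom), other scalings, filters and thresholds, a replicate block, only the groups compared, and leaving out each library.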

Additional observations from a re-analysis of the deposited data

Results flagged for a closer look

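The share of records that fell outside annotated genes, which enters no comparison above, was higher at 150 µg/ml. Its base is the gene counts and all summary rows together. It was 6.32% and 6.72% in the DMSO libraries, a mean of 6.52% ± 0.281 (SD, n = 2), and 7.98% and 7.73% at 150 µg/ml, a mean of 7.86% ± 0.180 (SD, n = 2). At 75 µg/ml it was 6.44% and 7.23%. The 2 groups of the comparison did not overlap, and with 2 libraries each an exact permutation test could not reach the 0.05 threshold. Its part in the results above was not tested.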

How the results depend on the processing

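Against DMSO, the count of 8022 genes lay between 6271 and 8573 under all alternatives but a limit of 1 on the absolute log2 fold change, which left 1827 (1205 higher and 622 lower). Leaving out single libraries gave 6691 to 8021. DESeq2 called 6733 and limma-voom 7947. Total counts left 2542 lower genes. The step from 75 to 150 µg/ml was less firm: its 3433 genes became 1883 at an adjusted p under 0.01 (722 higher, 1161 lower) and 226 with the fold limit (130 higher, 96 lower). Its 1482 higher genes became 980 in DESeq2. Without single libraries the step gave 1507 to 3714 genes, 592 to 1612 higher and 915 to 2105 lower. The fewest came without replicate 1 at 150 µg/ml, and its higher genes also moved by more than 1.5 times without replicate 1 (807) or replicate 2 (968) at 75 µg/ml. List members called, each gene counted once over all lists together, numbered 1319 (436 higher, 883 lower), and 296 (165 and 131) with the fold limit.

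Signs were checked for named genes only, not for all genes tested. Among the named genes checked, the sign turned under total counts for SKP1 (0.1554), CDKN1B (0.005165), EIF2AK2 (0.007708), MT-ATP8 (0.1414), NFKBIA (0.1315) and TXN (0.05505). Of these EIF2AK2 and TXN had been called. SKP1 also turned with genes at 5 CPM or more in 2 libraries (0.00599). Without single libraries MT-ATP8 ranged from -0.4009 to 0.2382, NFKBIA from -0.2768 to 0.1273, SKP1 from -0.1125 to 0.04465, WWTR1 from -0.03665 to 0.3214 and RNH1 from -0.07951 to 3.209. Of these RNH1 alone had been called. Scaling sets the zero from which signs are read, and the other causes were not tested.

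Replicate numbers did not pair the libraries: correlations of the replicate differences between groups were 0.0413 (DMSO and 150), 0.00373 (75 and 150) and 0.059 (DMSO and 75). A replicate block gave 8194 genes against DMSO and 3776 in the step, and changed no call among 475 results for named genes. With 3 residual degrees of freedom among 6 libraries, the tests lean on the spread shared across genes.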

Other observations

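Chromatin genes and transcription factor families outside the comparisons above are set beside the shares over all genes, 25.8% higher and 25.7% lower. Of 24 genes of DNA methylation and Polycomb complexes 11 fell (45.8%) and 6 rose (25%, near the share of all genes), with a median of -0.22. By total counts 7 of the list rose and 8 fell, with a median of -0.04, beside 38.7% higher and 16.3% lower over all genes. The maintenance methyltransferase gene DNMT1 went from 624 and 588 to 344 and 366 CPM (-0.77, SE 0.0481), whereas the de novo methyltransferase DNMT3A rose from 31.2 and 33.1 to 46.2 and 50.7 CPM (0.59, SE 0.0826), with no overlap of the groups in either. Of 21 clock genes 10 rose and 3 fell (median 0.32). The repressor BHLHE40 went from 49.9 and 59.4 to 132 and 151 CPM (1.38, SE 0.0793) and CRY1, a repressor of the clock's feedback loop, from 106 and 102 to 54.6 and 50.3 CPM (-0.99, SE 0.0672).

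The counts that follow also stand beside 25.8% higher and 25.7% lower over all genes. In the Notch pathway 7 of 17 rose and 4 fell (median 0.08), which is 41.2% and 23.5%. The ligand gene JAG1 rose from 27.5 and 28.5 to 47.4 and 48.8 CPM (0.78, SE 0.0859), and LFNG, a glycosyltransferase that modifies Notch receptors, fell from 10.5 and 10.5 to 3.20 and 4.30 CPM (-1.49, SE 0.192). LFNG stood at 11.98 and 9.25 CPM at 75 µg/ml, beside its DMSO level, and its step to 150 µg/ml was -1.50 (SE 0.191). Host transcripts of small nucleolar RNAs fell in 9 of 24 cases and rose in 4 (median -0.24). By total counts 7 of the list rose and 8 fell, with a median of -0.05. SNHG4 fell from 64.7 and 54.9 to 27.8 and 27.4 CPM and SNHG29 rose from 198 and 187 to 254 and 241 CPM. Of 7 genes of metallothioneins and zinc transport 3 rose and 2 fell, with a median of -0.01 under TMM and 0.18 by total counts. MT1X (1.57), MT1F (0.51) and MTF1, which drives metallothionein transcription (0.39), rose, and MT1E fell from 138 and 141 to 80.7 and 93.6 CPM (-0.68, SE 0.0656). Of 20 tubulin genes, which share sequence, 10 fell and 6 rose (median -0.31).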
